A study of Caenorhabditis elegans with 2 samples.

Results

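Of the 9660 regions that the authors listed for TRA-4 in early embryos of Caenorhabditis elegans, 1327 had their summit inside the protein-coding sequence (CDS) of a gene and away from gene boundaries. These coding-exon regions were chosen by position alone. The summit, the position of highest signal within a region, had to lie in an annotated CDS, over 500 bp from the start of every protein-coding, tRNA, snoRNA, snRNA, miRNA and ncRNA gene and over 300 bp from the end of every protein-coding gene. In the lists of the single replicates the same rule took 2770 of 19062 regions in replicate 1 and 2154 of 13957 in replicate 2. The bases of the genome that meet the rule, called eligible coding bases here, came to 16.5 Mb, or 16.5% of the 6 nuclear chromosomes.

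The data came from chromatin immunoprecipitation with sequencing (ChIP-seq) of 1 group with 2 biological replicates. The embryos were of strain OP640, which is mutant for unc-119 (allele tm4063) and carries the integrated transgene wgIs640, from which TRA-4 with a GFP-FLAG tag at its C-terminus is made. An antibody against GFP was used on sonicated chromatin of whole early embryos of both sexes, harvested by bleaching. The series has no other genotype or stage, so the coding-exon regions were set beside other classes of regions and beside the eligible coding bases. No p-value was computed, because regions of 1 list are not replicates. The 95% intervals are exact (Clopper-Pearson for shares, Poisson for densities) and cover counting error only.

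TRA-4 carries C2H2 zinc fingers like those of the human protein PLZF, and in worms its known partners in the control of sex determination are NASP-1, a histone chaperone, and HDA-1, a histone deacetylase. Sequence-specific factors of this kind are mostly studied at promoters and enhancers, which in this compact genome lie close to gene starts or in introns. A coding exon can also hold an internal promoter or an enhancer, and ChIP-seq lists made with relaxed thresholds hold regions of background anywhere in the genome.

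The sequences at the summits of the best supported coding-exon regions are shown first, since all values that follow are counted from such summits. Each line gives the bases within 50 bp to each side of a summit, from the RefSeq sequence of the assembly WBcel235 (ce11), written 5′ to 3′ on the strand of the gene. Capitals mark bases in annotated CDS, and lower case marks the intron or untranslated leader beside it. These are the regions that meet the position rule above and that the authors' final set retained on chromosomes II, III and V.
lelo-2, chrIII:1420127-1420227, minus strand: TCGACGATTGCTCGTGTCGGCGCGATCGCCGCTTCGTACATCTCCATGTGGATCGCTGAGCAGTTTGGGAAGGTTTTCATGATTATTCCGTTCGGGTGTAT
srlf-15, chrII:11038980-11039080, plus strand: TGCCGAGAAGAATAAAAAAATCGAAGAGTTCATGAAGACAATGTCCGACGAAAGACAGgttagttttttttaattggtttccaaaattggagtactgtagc
sup-37, chrV:8791210-8791310, plus strand: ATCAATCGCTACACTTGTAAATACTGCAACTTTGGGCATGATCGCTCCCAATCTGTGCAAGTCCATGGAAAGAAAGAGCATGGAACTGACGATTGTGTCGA
zfp-1, chrIII:8804910-8805010, plus strand: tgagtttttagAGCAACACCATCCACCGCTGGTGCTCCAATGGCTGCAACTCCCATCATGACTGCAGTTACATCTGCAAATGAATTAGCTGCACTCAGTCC
hsp-90, chrV:14686137-14686237, plus strand: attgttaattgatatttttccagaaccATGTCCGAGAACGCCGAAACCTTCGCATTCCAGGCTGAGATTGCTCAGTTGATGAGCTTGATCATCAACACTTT
grl-7, chrV:11345128-11345228, minus strand: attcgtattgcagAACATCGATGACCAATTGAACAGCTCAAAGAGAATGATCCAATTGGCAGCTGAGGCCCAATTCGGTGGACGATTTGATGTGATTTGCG
Y111B2A.12, chrIII:12619325-12619425, plus strand: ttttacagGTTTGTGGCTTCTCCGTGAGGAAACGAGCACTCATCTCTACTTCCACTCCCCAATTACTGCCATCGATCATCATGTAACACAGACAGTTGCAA
The windows of lelo-2 and sup-37 were coding throughout, those of zfp-1, grl-7, Y111B2A.12 and srlf-15 spanned an intron boundary, and that of hsp-90 held the start codon.

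Coding exons held fewer of the regions than their length would give. They took 13.7% of the pooled regions (13.1 to 14.4), against 16.5% of genome bases, so the observed share was 0.834 of the base share. For introns away from starts and ends the observed share was 0.966 of the base share, for gene ends 1.03, for protein-coding starts 1.26 and for starts of tRNA, snoRNA, snRNA and miRNA genes, called small RNA starts here, 5.07. Regions near ncRNA starts only had a ratio of 1.48. The rest of the genome, outside genes or in an untranslated region, was lower than coding exons. It had 17.2% of regions and 25.6% of bases, a ratio of 0.672. In the replicate lists coding exons took 14.5% of regions in replicate 1 and 15.4% in replicate 2, both also below the base share.

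The share in coding exons was lowest among the strong regions. Of the 394 strongest pooled regions, which are the authors' final set, chosen by how alike regions rank in replicates (the irreproducible discovery rate, IDR), 2.03% were in coding exons (0.881 to 3.96). The share was 8.58% for pooled ranks 395 to 1000, 12.7% for ranks 1001 to 3000, 14.97% for ranks 3001 to 6000 and 15.4% (14.3 to 16.6) for ranks 6001 to 9660. The top ranks were thus far below the base share of 16.5%. The intervals of ranks 1001 to 3000 (11.2 to 14.2) and 3001 to 6000 (13.7 to 16.3) also lay wholly below it, and only that of the lowest ranks covered it. Both replicates had the same order at the top. For ranks 1 to 394 the share was 3.05% in replicate 1 and 2.54% in replicate 2. For ranks 395 to 1000 it was 8.91% and 9.08%. Lower down the replicates differed. At ranks 6001 to 9660 replicate 1 had 14.04% (12.9 to 15.2), wholly below the base share. Replicate 2 had 17.8% (16.6 to 19.1) at these ranks, wholly above it. Past rank 9660 both intervals covered the base share, with 16.2% in replicate 1 and 15.8% in replicate 2.

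**Figure D1:**
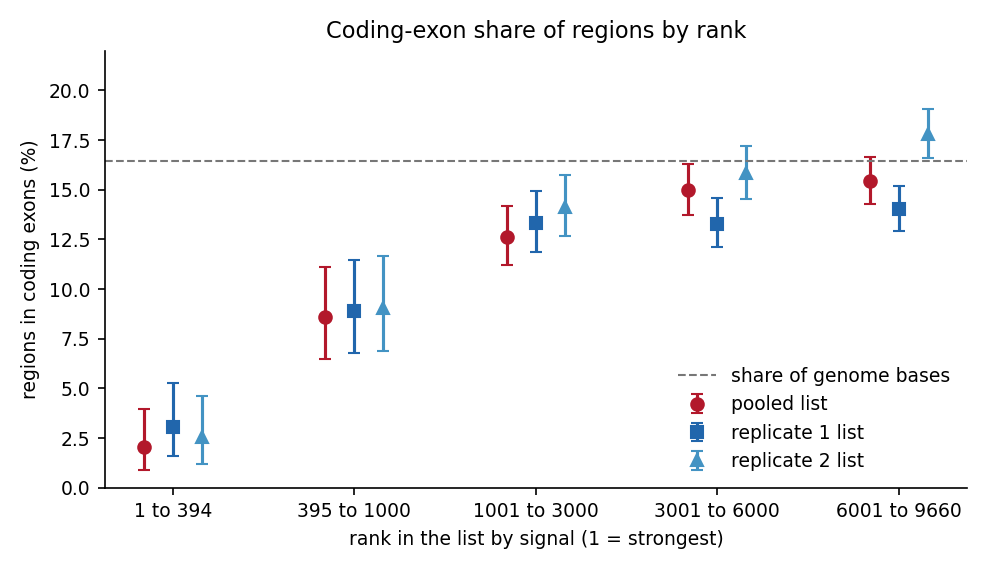
Share of regions in coding exons (vertical axis, percent) by rank of signal (horizontal axis) in the pooled list and in each replicate list, with exact 95% intervals as bars. The dashed line is the share of genome bases that meet the same rule, 16.5%; in the pooled list the share was 2.03% for the 394 strongest regions and 15.4% for ranks 6001 to 9660.

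Few coding-exon regions reached the authors' final set. It held 8 of the 1327 (0.603%, 0.261 to 1.18), against 4.08% of all pooled regions. The share resembled that of introns, 16 of 2460 regions (0.650%, 0.372 to 1.05), and lay below that of gene ends, 1.53% (0.764 to 2.71), of protein-coding starts, 5.72% (4.80 to 6.76), and of small RNA starts, 33.5% (29.7 to 37.5). Outside genes or in an untranslated region it was 0.781% (0.417 to 1.33). The intervals of coding exons, introns and this last class therefore overlapped. The interval of coding exons lay wholly below those of protein-coding starts and small RNA starts. A q-value under 0.05, as the authors' caller gave it, was reached by 16 coding-exon regions (1.21%, 0.691 to 1.95), against 5.54% of all pooled regions. Because the final set is the top of the pooled list by signal, these shares and the shares by rank describe the same ordering and do not support each other.

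Support in both replicates was close to that of introns and somewhat below that of the whole list. Of the coding-exon regions, 988 (74.5%) overlapped a region of replicate 1 by at least 1 bp and 1103 (83.1%) overlapped one of replicate 2. Both replicates had an overlapping region for 784 (59.1%, 56.4 to 61.7), against 63.2% of all pooled regions and 59.0% of intron regions. Protein-coding starts had 66.3% and small RNA starts 88.5%. The pooled list was called on the reads of both replicates, so this overlap is no independent count. A replicate summit within 100 bp was found in both replicates for 503 (37.9%), against 41.1% of all pooled regions. All 16 coding-exon regions with a q-value under 0.05 overlapped a region of both replicates. The same share is not given here for all 535 pooled regions with such a q-value, so it does not set these 16 apart.

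Among coding-exon regions found in both replicates, the signal values of the 2 replicates were weakly correlated. Over the 784 regions found in both, the Spearman's rho of the signal values was 0.179, set beside 0.136 for introns, 0.411 for protein-coding starts and 0.807 for small RNA starts. These correlations run across regions of the same 2 libraries and are given as a description. The regions were listed by their pooled signal, and its range differed between classes. The quartiles were 47.1 to 58.6 for all coding-exon regions and 55.2 to 121.5 for all small RNA starts. The correlations are therefore no like measure of agreement between replicates, and the part of the range in them was not tested. Neighbouring members can match 1 replicate region, so the 988 matches in replicate 1 came from 943 distinct regions and the 1103 in replicate 2 from 1058. All 1327 members were 480 bp wide, and 92 of them overlapped another member.

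**Figure D2:**
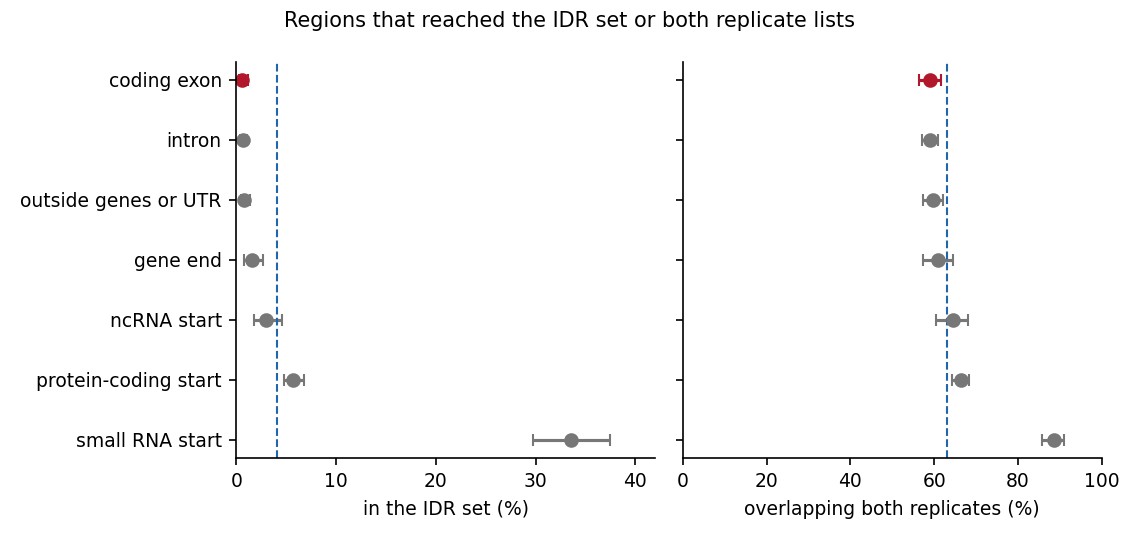
Percent of regions in the authors' IDR set (left) and percent overlapping a region of both replicates (right) for each position class, coding exons in red at the top, with exact 95% intervals; the dashed lines mark all pooled regions, at 4.08% and 63.2%. Coding exons stood at 0.603% in the IDR set and at 59.1% in both replicates.

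The strongest coding-exon region lay in lelo-2, which RefSeq annotates as a protein with a major facilitator superfamily (transporter) domain. Its pooled signal was 163.2, and the overlapping regions ranked 88 in replicate 1 and 175 in replicate 2. The summit, at position 1420177 of chromosome III, was in the last of 7 coding exons, 7049 bp from the gene start and 322 bp from the gene end. A short second transcript of lelo-2 is annotated to begin inside that exon, 194 bp from the summit. It was thus high in every list, and it passed the distance rule only with respect to the outer boundaries of the gene.

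The region in hsp-90, the cytosolic chaperone HSP90, ranked 326 in the pooled list with a signal of 108.0, and had ranks of 210 in replicate 1 and 151 in replicate 2. Its summit at 14686187 of chromosome V stood 1269 bp inside the outermost gene start but only 27 bp from the start of the other annotated transcript and 23 bp from the start codon. Another region of the final set overlapped it and had its summit 199 bp away. A second, weaker hsp-90 member, at pooled rank 5306 with a signal of 51.8, matched the same replicate regions as the stronger one. The stronger hsp-90 summit thus lay at an annotated start that the rule, which uses the outermost start of a gene, did not leave out. The weaker one was 231 bp from that start, in the second coding exon.

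The other 6 members of the final set were at least 610 bp from every annotated transcript start of their own gene. Of these, the grl-7 summit was only 350 bp and the srlf-15 summit 445 bp from the end of its own gene. The srlf-15 region, in a gene annotated with an SXP/RAL-2 domain known from nematode secreted proteins, had signal 116.6 and rank 270, with ranks 247 in replicate 1 and 378 in replicate 2. The zfp-1 region had signal 111.2 and rank 298, with ranks 347 and 353; zfp-1 encodes the worm relative of the leukaemia gene product AF10, a chromatin protein that binds histone H3. These 2 genes were high in both replicates. The sup-37 region, in a gene for a C2H2 zinc finger protein, had signal 113.5 and rank 281, with ranks 692 in replicate 1 and 356 in replicate 2.

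The remaining 3 ranked lower in replicate 1 than in replicate 2, as the sup-37 region also did. For grl-7, which encodes a ground-like protein of the hedgehog-related group, the pooled signal was 107.2 at rank 332, with rank 731 in replicate 1 and rank 235 in replicate 2. For Y111B2A.12, a WD repeat protein, it was 103.9 at rank 367, with ranks 1073 and 398. For lron-11, which encodes an extracellular leucine-rich repeat protein on chromosome I, it was 102.7 at rank 382, with ranks 958 and 365. None of the 8 members of the final set had another copy of its summit sequence in the genome at 90% identity or more. Chromosome III held 3 of the 8, chromosome V 3, and chromosomes I and II 1 each.

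The next strongest regions fell just below the final set. In vnut-1, annotated with the same transporter domain as lelo-2, the signal was 100.9 at rank 406, with ranks 276 in replicate 1 and 845 in replicate 2. In gldr-2, annotated with a poly(A) polymerase-associated domain, it was 98.6 at rank 430 (309 and 559), and in algn-12, a mannosyltransferase of N-glycan assembly, it was 97.5 at rank 446 (335 and 564). All 3 were within the first 1000 ranks of both replicate lists. The regions in twk-49, a potassium channel gene, and in mbk-2, the DYRK kinase that acts at the transition from oocyte to embryo, ranked 467 and 485. The mbk-2 region was the strongest on chromosome IV and ranked 349 in replicate 1 and 2225 in replicate 2.

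The last of the 15 strongest were tfg-1 (signal 94.1, rank 492), which encodes a component of export sites of the endoplasmic reticulum, and T19A5.3 (93.3, rank 503). Their summit windows had a GC content of 70.3% and 63.4%, which put both in the highest of the GC classes described below. T19A5.3 ranked 3719 in replicate 1 and 385 in replicate 2, and tfg-1 ranked 964 and 623. The strongest region on chromosome X lay in pks-1, a polyketide synthase gene, with signal 91.7 at rank 537, and its ranks were 1013 in replicate 1 and 412 in replicate 2. No member on chromosome IV or X reached the final set.

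Few members lay beside an annotated start inside their gene. Of the 1327, 158 (11.9%, 10.2 to 13.8) lay within 500 bp of another transcript start of their own gene, against 7.41% of eligible coding bases within 500 bp of any such start. Within 100 bp it was 60 (4.52%), against 2.39% of eligible coding bases. Members were thus more frequent beside internal starts than the bases were, yet 1169 (88.1%) were over 500 bp from every annotated transcript start of a protein-coding gene. Of the 1327 members, 24 (1.81%) were within 500 bp of the start of a piRNA gene and 30 (2.26%) were inside the span of another protein-coding gene. Another summit of the final set lay within 1000 bp of 10 (0.754%). The share of eligible coding bases at these features is not given here, so these counts are not read as low or high.

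Among summits in coding exons, those next to a gene start stood apart in their support. Including the excluded ones near starts, and over 300 bp from gene ends, 10 of 127 summits within 100 bp of a start were in the final set (7.87%, with an interval that begins at 3.84%). It was 3 of 176 (1.70%) over 100 and up to 250 bp away, 1 of 218 (0.459%) up to 500 bp, 3 of 325 (0.923%) up to 1000 bp, 1 of 437 (0.229%) up to 2000 bp and 4 of 565 (0.708%) beyond. The interval of the band next to the start lay above those of the bands past 250 bp, and the intervals of those bands overlapped, with no order by distance among their shares. A q-value under 0.05 was reached by 12 of the 127 next to a start (9.45%), by 3 of 437 over 1000 and up to 2000 bp away (0.686%) and by 10 of 565 beyond 2000 bp (1.77%). The members just inside the start limit, over 500 and up to 600 bp away, numbered 79 with a median signal of 48.8, and the 82 regions just outside it, over 400 and up to 500 bp away, had a median of 51.3; neither band held a member of the final set. At the limit for gene ends, the 66 members over 300 and up to 400 bp away had a median signal of 52.5 and 3 in the final set, and the 82 regions over 200 and up to 300 bp away had 52.6 and 2.

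Coding-exon regions lay in GC-rich stretches of exons. The median GC content within 50 bp of the summit was 44.6% (quartiles 39.6 to 50.5), against 41.6% for the eligible coding bases. The replicate lists each had a median of 43.6%. Introns had 36.6% at their summits, protein-coding starts 39.6% and small RNA starts 45.5%.

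The number of regions per Mb rose with GC content through every class. It was 42.5 per Mb (27.5 to 62.7) of eligible coding bases under 30% GC, 56.1 at 35 to 40%, 72.4 at 40 to 45%, 96.4 at 45 to 50%, 161.8 at 50 to 55% and 231.1 at 55 to 60%. At 60% and over it was 391.9 per Mb (286.9 to 522.7), from 46 members in 0.117 Mb. The extreme classes had intervals far apart. Replicate 1 had 93.5 regions per Mb in the lowest class and 519.6 in the highest, and replicate 2 had 61.2 and 417.4. The 16 members with a q-value under 0.05 were spread over all classes from 30% up, with 6 of them at 40 to 45%.

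Introns showed the same rise, and at equal GC content up to 60% they held more regions than coding exons. At 40 to 45% GC there were 72.4 regions per Mb in coding exons (64.8 to 80.5) and 148.4 in introns (134.7 to 163.2). At 50 to 55% there were 161.8 in coding exons (140.1 to 185.9) and 244.1 in introns (203.7 to 290.3). The intervals of coding exons and introns did not overlap in any class from 30 to 55%, and coding exons were lower in each of them. Under 30% there were 42.5 in coding exons and 54.7 in introns, and at 55 to 60% 231.1 and 294.8. At 60% and over coding exons were the higher, with 391.9 (286.9 to 522.7) against 309.6 in introns (196.3 to 464.5). In these 3 classes the intervals overlapped. Introns are poorer in GC, and the overall shares of the 2 classes were closer than their densities at matched composition. The GC content of the control alignment, which is not analysed here, was not compared.

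**Figure D3:**
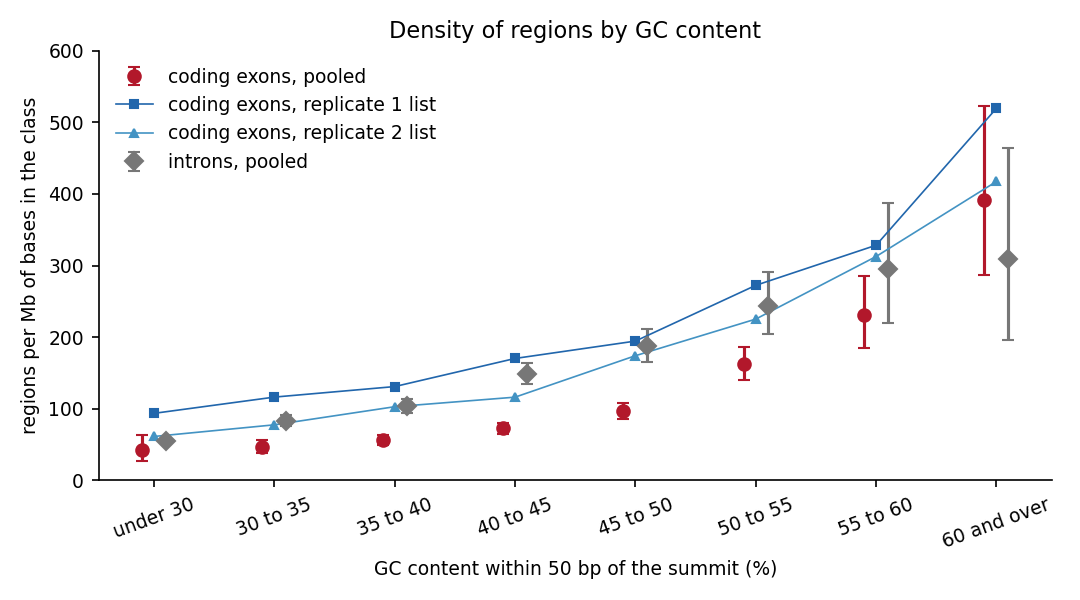
Regions per Mb (vertical axis) in classes of GC content within 50 bp of the position (horizontal axis) for coding exons in the pooled list (red, exact 95% Poisson interval), for coding exons in each replicate list (lines) and for introns in the pooled list (grey, with intervals). Density rose with GC content in all 4, and pooled coding exons were below introns in each class from 30 to 55%.

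The enrichment in GC was largest near the summit. In steps of 20 bp the mean GC content was 46.6% at the summits of members, against 42.9% at eligible coding positions. At 200 bp to the left it was 39.96% for members, against 38.1% for eligible positions, and at 500 bp to the left 36.5%, against 36.6%. On the right side the means at 500 bp were 37.6% for members and 36.6% for eligible positions. The excess was thus mostly within the width of a region. The share of positions in CDS fell with distance in both sets, to 41.7% for members and 47.5% for eligible positions at 500 bp to the left.

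**Figure D4:**
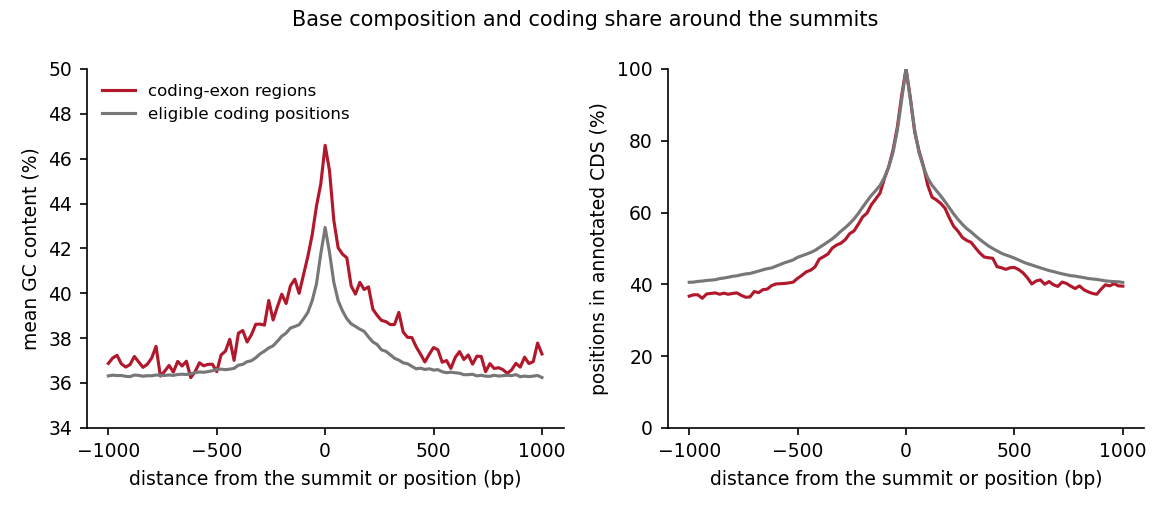
Mean GC content (left, percent, axis from 34) and percent of positions in annotated CDS (right) by distance in bp from the summits of coding-exon regions (red) and from eligible coding positions on a fixed grid (grey). GC content at the centre was 46.6% at members and 42.9% at eligible positions.

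For 5 of the 8 short motifs searched, the interval of the members covered the share in coding exons at large. The letters were sought on both strands within 50 bp of the summit and are given with the share of grid windows at eligible coding positions. The B box of tRNA promoters, GTTCNANNC, was in 3.77% of members (2.81 to 4.94), against 4.77% of grid windows, while 26.6% of small RNA starts held it. GAGAGA was in 4.37% of members and 5.39% of grid windows, CACGTG in 2.49% and 2.54%, TATAAA in 4.75% and 5.33%, and GGCGGGAA in 0.226% and 0.171%. For these the interval of the members covered the share of the grid. It did not for the AT-rich letters AGATAA (3.32% of members, 4.53% of grid windows) and TTTGAA (14.5% and 18.4%), which were less frequent at members, or for GGGCGG (2.11% and 1.24%), which was more frequent. These 3 differences ran with the GC content above, and their part in it was not tested. A covered share does not show equal frequency. The ratio of members to the grid was 0.789 for the B box and 0.789 for TTTGAA, and GGCGGGAA was in only 3 members. The letters GGGCGG and GGCGGGAA can overlap each other, and a match is only a description of the sequence.

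Members were more frequent in last coding exons than the eligible bases were. Of the 1310 members in the CDS of the longest coding transcript, 10.99% (9.35 to 12.8) were in the last coding exon, against 7.69% of eligible bases. Internal exons held 87.3% (85.4 to 89.1), against 90.5%, and first ones 1.53% (0.935 to 2.35), against 1.72%. Along the CDS, 4.35% of members (3.31 to 5.60) were in the first 10% of its length, against 3.17% of eligible bases, and 7.25% (5.91 to 8.79) in the last 10%, against 5.74%. The intervals for last exons and for both ends of the CDS lay above the share of the bases, that for internal exons below it, and that for first exons covered it. The median exon length at members was 304 bp, against 294 bp at eligible bases.

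Across chromosomes the density was highest on III, with 102.1 members per eligible Mb, followed by I with 95.1, II with 84.8, X with 72.0, IV with 71.5 and V with 61.7. The intervals of neighbours in this order overlapped throughout, and those of III (89.96 to 115.4) and V (53.6 to 70.7) did not. With each chromosome cut into 3 equal lengths, the outer parts had 89.8 members per eligible Mb and the middle part 66.6, and the outer parts were higher on each of the 6 chromosomes. Eligible coding bases were also richer in GC in the outer parts of each chromosome. If each GC class held its overall density, the outer parts would hold 856.8 members and the middle parts 470.2, beside 881 and 446 observed, which gives ratios of 1.03 and 0.948. For whole chromosomes the same ratio ran from 0.818 on V to 1.22 on III. By this ratio the outer parts were below the middle part on II (0.981 against 1.07) and on V (0.782 against 0.883). On the other chromosomes they were above it.

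Near-identical copies were rare among the members. Within 100 bp to each side of the summit, 14 members (1.06%) had another genomic match of at least 90% identity over 90% of the window, against 4.33% of eligible coding positions and 2.15% of intron regions. Reads from such copies cannot be placed with certainty. Of the named genes, eef-1A.2, a gene for translation elongation factor 1A, had 2 members of pooled rank 622 and 2242 in 1 exon; each had 1 other copy. A member in unc-44, at pooled rank 3090, also had 1 other copy.

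Most host genes had a single region. The 1327 members lay in the CDS of 1121 genes, 5.61% of the 19973 protein-coding genes; 972 genes held 1, 118 held 2 and 15 held 4 or more. The gene vab-10, whose spectraplakin proteins tie the cytoskeleton together in the epidermis, held 7 in 23.1 kb of eligible CDS, with signals of 44.9 to 59.4; replicate 1 overlapped 6 of them and replicate 2 overlapped 4. The chromatin remodelling gene nurf-1 held 6 in 6.18 kb, the best at rank 1668 with signal 67.6, rank 248 in replicate 1 and rank 1602 in replicate 2, and 255 bp from another nurf-1 transcript start. The moulting gene mlt-11, which encodes a protein with protease inhibitor domains, also held 6, in 7.58 kb, all overlapping both replicates. The strongest signals in vab-10, nurf-1 and mlt-11, at 59.4, 67.6 and 56.6, were thus all below the 8 members of the final set.

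The genes chd-7, cam-1, set-16 and lam-1 held 5 each. Chromodomain helicase gene chd-7 had the strongest of these, with signal 78.1 at rank 945. The Ror receptor kinase gene cam-1 held its 5 in only 2.71 kb of eligible CDS, and in 2 pairs of them both regions matched the same replicate regions. The MLL-type histone methyltransferase gene set-16 had signals of 46.8 to 59.3. The laminin beta gene lam-1, which is named after its values were seen because it ties with the others, had 5 in 5.07 kb with signals of 45.3 to 58.1. Counts in 1 gene thus overstate the number of separate places where members lie close together.

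Gene families differed in how many regions their exons held. Over all protein-coding genes there were 8.04 members per 100 kb of eligible CDS (7.61 to 8.48). Cuticle collagens, the structural proteins of the cuticle, had 16 regions in 16 of 156 genes, 27.8 per 100 kb (15.9 to 45.1), led by col-81 (signal 72.2, rank 1285) and col-153 (65.9, rank 1875), which no region of replicate 1 overlapped. Giant cytoskeletal and spectrin genes had 24 in 12 of 20 genes, 18.2 per 100 kb (11.7 to 27.1), led by unc-44, the ankyrin gene (80.3, rank 851), and spc-1, the alpha spectrin gene (66.7, rank 1768). Both lists were above all genes by their intervals. These intervals count each region as separate, though unc-44 alone held 4 of the 24.

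There were 3 lists below all genes by their intervals. Chemoreceptors, the receptors of sensory neurons, had 15 regions in 1301 genes, 2.60 per 100 kb (1.45 to 4.28), with srxa-5 (61.9, rank 2451) and srt-47 (58.9, rank 3081) the strongest. F-box genes had 5 in 322 genes, 2.97 per 100 kb (0.963 to 6.92), with fbxa-216 (67.2, rank 1712) and fbxa-3 (63.4, rank 2202). Sarcomere genes, which build the contractile apparatus of muscle, had 4 in 20 genes, 2.65 per 100 kb (0.722 to 6.79), the strongest in unc-15, the paramyosin gene (68.4, rank 1579), and unc-89 (62.3, rank 2381). Near-identical copies stood at 33 of 187 windows placed every 1000 eligible bases in the F-box list (17.6%). They stood at 32 of 442 for chemoreceptors (7.24%) and 15 of 150 for sarcomere genes (10%). Such copies were not particular to the low lists. Giant cytoskeletal genes, which were above all genes, had 12 of 131 (9.16%), germline RNA-binding genes 18.2% and vitellogenin genes 83.3%. The part of copies in the counts was not tested.

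Base composition ran with these differences in part. The median GC content of eligible bases was 57.4% in collagen genes, 36.6% in chemoreceptor genes, 37.6% in F-box genes and 41.6% over all genes. At the overall density of each GC class, collagens would hold 14.6 regions and had 16, a ratio of 1.09 (0.625 to 1.78). F-box genes would hold 10.4 and had 5 (ratio 0.480, 0.156 to 1.12). Giant cytoskeletal genes would hold 13.4 and had 24 (1.79, 1.15 to 2.66), chemoreceptors 33.8 and had 15 (0.444, 0.248 to 0.732), and sarcomere genes 13.8 and had 4 (0.289, 0.0788 to 0.740). By these intervals, which count each region as separate, the last 3 lists stayed away from 1 at matched GC content. The collagen and F-box lists did not.

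**Figure D5:**
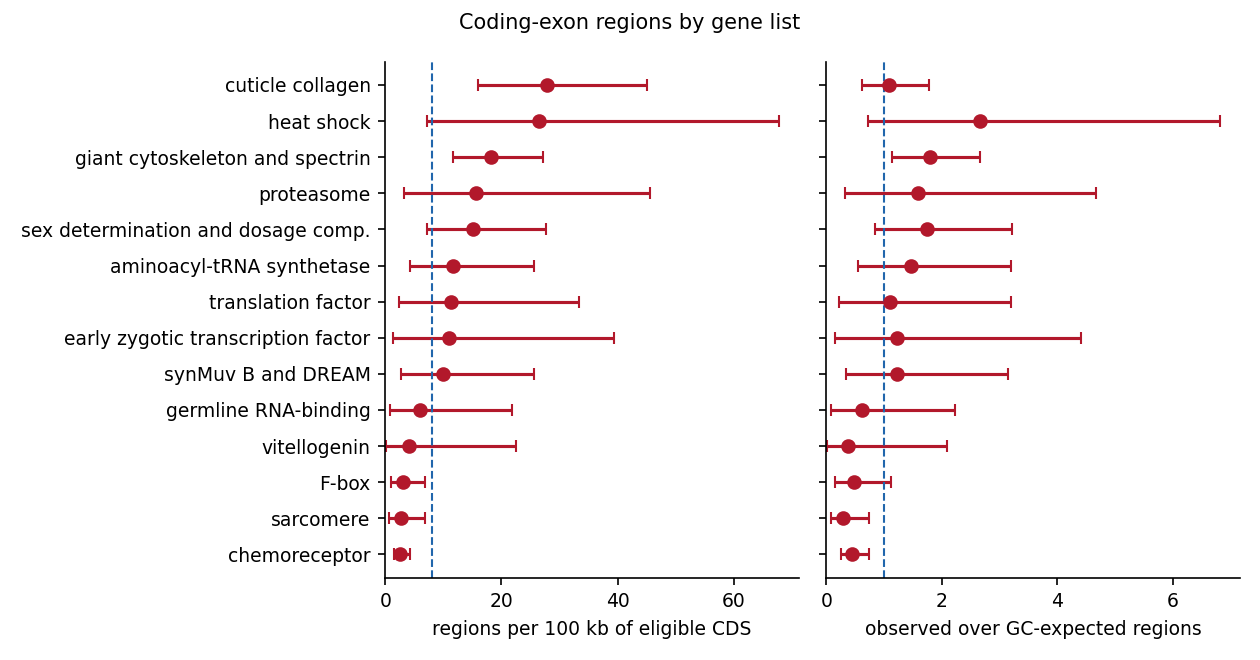
Coding-exon regions per 100 kb of eligible CDS (left, dashed line at 8.04 for all genes) and the ratio of observed to GC-expected regions (right, dashed line at 1) for the gene lists with at least 1 GC-expected region, with exact 95% Poisson intervals. Collagens stood at 27.8 on the left and at 1.09 on the right, chemoreceptors at 2.60 and 0.444.

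The remaining lists had intervals that covered the value of all genes. The list for sex determination, dosage compensation and TRA-4 partners had 10 regions in 6 of 30 genes, 15.04 per 100 kb (7.21 to 27.7) and 1.75 times the GC-expected number (0.839 to 3.22). Its strongest hosts were sdc-2 (76.5, rank 1006), which directs dosage compensation to the X chromosomes, and dpy-21 (55.9, rank 3835), a histone demethylase of the same complex. The partner gene hda-1 held 1 member, with signal 49.5 at rank 6346, rank 10184 in replicate 1 and rank 5437 in replicate 2. No member lay in tra-4, in nasp-1 or in mix-1, a condensin gene. Their eligible CDS is short, so that the overall density would give 0.122 members in tra-4, 0.0374 in nasp-1 and 0.225 in mix-1. The list of replicate 1 had 1 coding-exon region in tra-4 and 1 in mix-1, and that of replicate 2 had none in any of the 3. The pooled list had 2 regions with their summit elsewhere within tra-4 and 2 elsewhere within mix-1.

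Heat shock genes had 4 regions in 3 of 22 genes, 26.5 per 100 kb (7.21 to 67.8), of which hsp-90 held 2; the other leading host was hsp-3, an endoplasmic reticulum chaperone gene (61.1, rank 2569). The interval just reached the value of all genes. Proteasome genes had 3 regions, led by rpt-5 (51.9, rank 5264) and rpn-10 (47.9, rank 7160), aminoacyl-tRNA synthetase genes 6, led by rars-1 (75.7, rank 1057) and fars-2 (48.5, rank 6838), and translation factor genes 3, led by eef-1A.2 (87.9) and eif-2Bdelta (56.0, rank 3797). These are housekeeping genes of protein synthesis and turnover. The densities were 15.6 per 100 kb for proteasome genes, 11.7 for synthetase genes and 11.4 for translation factor genes.

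Among embryonic regulators, early zygotic transcription factor genes had 2 regions, in lin-26 (62.7, rank 2318) and pha-4 (48.6, rank 6802), the regulators of epidermis and pharynx. The synMuv B and DREAM list, chromatin repressors of germline and cell cycle genes, had 4, led by mep-1 (60.01, rank 2806) and lin-61 (56.6, rank 3645). Germline RNA-binding genes had 2, in mex-3 (47.0, rank 7631) and mex-5 (45.2, rank 8787), and the mex-5 region overlapped no region of either replicate. Vitellogenin genes had 1, in vit-6 (45.2, rank 8746). The histone and ribosomal protein lists had none, in 0.168 and 3.29 kb of eligible CDS, and major sperm protein genes had no eligible CDS. No region of replicate 1 overlapped the members in fbxa-3, unc-89, lin-61, rpn-10 and mex-3, and none of replicate 2 overlapped that in rpt-5.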

How the data were processed

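The deposited files used here are region lists in narrowPeak format on the ce11 build: a relaxed list for each replicate, one for the pooled replicates and the final IDR set. Each region carries a signal value and the −log10 of a q-value, both as deposited by the authors. The descriptions deposited with the files name a control alignment as input, which is not analysed here. The aligner, the peak caller and the cutoff for IDR are named neither by the labels nor by the file headers used here. The depth of the libraries is unknown. The signal scale differs between lists, so only ranks were set side by side across lists. No column was left unmapped to its sample or to the pooled replicates.

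Summits, 1-based, were classified by the Ensembl release 115 annotation with Python 3.11.15, numpy 2.4.6 and scipy 1.17.1. A summit in the CDS of several genes was counted for each. Classes took precedence in the order small RNA start, protein-coding start, ncRNA start, gene end, coding exon, intron and the rest. Copies were sought with blastn 2.17.0 100 bp to each side of a summit. Motifs were compared with windows at every 100th eligible base. The expected number by GC content sums the eligible bases of 8 GC classes times the density of members in each. The code was tested on simulated data. Named genes were the hosts of members in the final set, of the 15 strongest members, of the strongest on each chromosome, of the 6 genes with most members (ties broken by signal, which left out lam-1; it is named all the same) and of the 2 strongest in each of 17 gene lists, with tra-4, mix-1, nasp-1 and hda-1. The members, gene lists and motifs were chosen with earlier results of these data known.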

Additional observations from a re-analysis of the deposited data

How the results depend on the processing

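No paired analysis was possible because the series has a single group. The share of pooled regions in coding exons, 13.7%, was 15.99% with starts at 250 bp, 10.4% with starts at 1000 bp, 15.1% with ends at 150 bp and 11.7% with ends at 600 bp. It was 12.1% when every transcript start was left out, 2.99% at a q-value under 0.05, 14.5 to 15.4% without one replicate, and 12.9% and 15.3% among as many of the strongest regions of replicate 1 and replicate 2. Its ratio to the base share, 0.834, was 0.182 at a q-value under 0.05 and 0.882 to 0.937 without one replicate, and stayed within its interval under the other distances and with the longest transcript only. Under the other distances the rule takes more or fewer bases; for the other alternatives the cause was not tested. The share with a q-value under 0.05, 1.21%, was 0.226% at 0.01. The share in the final set stayed within its interval under every alternative run. Overlap with both replicates, 59.1%, was 53.4% when 0.5 of the region had to overlap, 37.9% for summits, 33.2% with replicate lists as long as the pooled one and 100% at a q-value under 0.05. The median GC content, 44.6%, was 42.8% within 100 bp, 40.8% over whole regions and 43.6% without either replicate. Of the 8 motifs, 3 had an interval that left out the grid share, 0 within 25 bp and 2 to 3 without one replicate. Within 25 bp the ratios to the grid of these 3 were 0.715 for AGATAA, 0.857 for TTTGAA and 1.65 for GGGCGG, beside 0.731, 0.789 and 1.71 within 50 bp. In the same order they were 0.809, 0.834 and 1.35 without replicate 1, and 0.844, 0.860 and 1.34 without replicate 2. Without replicate 1 the ratio was also low for GAGAGA (0.758) and TATAAA (0.783). The motifs counted without one replicate need not be the same 3. Near-identical copies, 1.06%, were 2.34% at 80% identity and 0.377% at 95%. Intervals of 5 gene lists left out the density over all genes, 4 to 6 without one replicate, 1 at a q-value under 0.05, and 3 left out the number expected from GC content, a comparison added after seeing the data. The signal values have no known depth behind them, so a weak region cannot be told from an absent one.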
